A study of Mus musculus with 8 samples.

Results

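The genes described here are 4 neutrophil attractants (Cxcl1, Cxcl2, Cxcl3 and Cxcl5) and 5 genes of neutrophils (S100a8, S100a9, Csf3r, Il1r2 and Trem1). They were chosen by name, with earlier results of these data known. Every probe set that the array annotation assigns to 1 of them and to no other gene was taken. This gave 9 genes on 12 probe sets, of 18193 genes on 34945 probe sets in the whole table. Each of the 8 Affymetrix arrays held RNA pooled from C57BL/6 mice aged 110 days, with 1 array for each group and no replicates. Tissue without tumours came from colon and small intestine of WT and ACKR2-/- mice, none of which carried ApcMin. Tumours of the colon and of the small intestine, which the labels name as ileum, came from ApcMin/+ and ACKR2-/-ApcMin/+ mice. ApcMin/+ mice carry 1 mutated copy of the tumour suppressor Apc and form intestinal tumours spontaneously. ACKR2, also called D6, is a scavenging receptor for inflammatory CC chemokines, and the attractants described here are CXC chemokines. The number of animals in a pool is not given. A tumour array and its tissue array therefore differ in the Apc genotype of the mice as well as in the tumour. They also differ in the sex genes given below.

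Neutrophils leave the blood when CXC chemokines bind the receptor CXCR2, which in the mouse reads Cxcl1, Cxcl2, Cxcl3 and Cxcl5. Epithelium, stroma and myeloid cells make these chemokines when IL-1, TNF or IL-17 activate them, in part through NF-kB. The neutrophils that arrive carry large amounts of the calcium-binding pair S100A8 and S100A9. They also carry the G-CSF receptor Csf3r, which supports their growth and survival, the decoy receptor Il1r2, which binds IL-1 without signalling, and the activating receptor Trem1. Monocytes share part of this equipment, and inflamed epithelium can make S100a8 and S100a9. In whole tissue, fewer cells of a type and less RNA per cell cannot be told apart.

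Sequence upstream of the genes is shown first. All 3 attractants with a window carry the same stretch close to their start. Cxcl5 had no window and also rose in colon tumours (3.55, below). A link between the stretch and the rise was not tested. RefSeq windows of 300 bases, 250 before and 50 after the gene start on GRCm38.p6, matched 8 of the 9 genes and are given for 5 of them. Cxcl5 was not matched. The windows lie at chr5:90890995-90891294 (Cxcl1, plus strand), chr5:90903649-90903948 (Cxcl2, plus), chr5:90785851-90786150 (Cxcl3, plus), chr3:90668821-90669120 (S100a8, plus) and chr3:90695672-90695971 (S100a9, minus). Capitals mark a stretch shared by the 3 attractants, GGGAATTTCC, which has the form of an NF-kB site, and the letters TATAAA, those of a TATA box.
Cxcl1: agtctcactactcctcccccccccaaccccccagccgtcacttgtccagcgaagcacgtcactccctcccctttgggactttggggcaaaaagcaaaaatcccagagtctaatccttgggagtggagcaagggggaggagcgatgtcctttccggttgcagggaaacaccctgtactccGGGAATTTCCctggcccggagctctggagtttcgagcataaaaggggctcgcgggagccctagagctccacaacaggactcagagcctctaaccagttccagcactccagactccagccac
Cxcl2: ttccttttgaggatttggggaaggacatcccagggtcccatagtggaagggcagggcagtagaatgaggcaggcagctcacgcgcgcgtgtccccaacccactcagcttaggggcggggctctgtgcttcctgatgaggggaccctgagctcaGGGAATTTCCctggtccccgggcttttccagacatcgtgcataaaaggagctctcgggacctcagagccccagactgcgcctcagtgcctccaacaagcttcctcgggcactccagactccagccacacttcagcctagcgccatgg
Cxcl3: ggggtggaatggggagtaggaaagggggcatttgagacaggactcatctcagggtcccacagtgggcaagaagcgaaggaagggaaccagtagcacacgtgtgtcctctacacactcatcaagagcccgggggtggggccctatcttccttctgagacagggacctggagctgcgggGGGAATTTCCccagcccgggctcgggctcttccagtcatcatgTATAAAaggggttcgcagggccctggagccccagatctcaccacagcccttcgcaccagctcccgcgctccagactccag
S100a8: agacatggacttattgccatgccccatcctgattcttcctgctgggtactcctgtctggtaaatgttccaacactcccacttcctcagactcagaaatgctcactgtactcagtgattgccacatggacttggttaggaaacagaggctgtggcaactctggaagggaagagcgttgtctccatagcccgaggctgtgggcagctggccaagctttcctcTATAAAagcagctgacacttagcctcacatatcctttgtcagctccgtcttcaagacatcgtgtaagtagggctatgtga
S100a9: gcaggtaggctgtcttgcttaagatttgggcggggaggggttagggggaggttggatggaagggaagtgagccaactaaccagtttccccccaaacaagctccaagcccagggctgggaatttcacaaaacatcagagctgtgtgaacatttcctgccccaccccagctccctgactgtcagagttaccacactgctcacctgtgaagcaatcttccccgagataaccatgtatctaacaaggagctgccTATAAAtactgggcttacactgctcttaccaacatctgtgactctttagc
The shared stretch starts at -71 in Cxcl1, -97 in Cxcl2 and -73 in Cxcl3, counted from the gene start. Both strands were searched, and it occurs in 29 of 32851 windows (0.0883%). Among the 14327 windows of genes tested on the arrays, 13 hold it (0.0907%). Besides the 3 attractants these belong to Asb8, Cep112, Csad, Hpn, Il16, Map3k7, Nfkbia, Trio, Tufm and Zfp84. Of these 13 genes, 3 passed the test as higher in colon tumours (below), beside 11.0% of all tested genes, and 0 passed as lower. The 3 were Cxcl1, Cxcl2 and Cxcl3, the genes from which the stretch was taken, so their place among the 13 was fixed. The median difference over the 13, those 3 included, was 0.45 on the log2 scale. Nfkbia, the NF-kB inhibitor, carries the stretch too and differed by 0.03 in colon tumours (limma adjusted p = 0.946). The stretch was looked for after the windows had been seen, so its rarity is a description. A looser form, GGGNNNNNCC, overlaps it and occurs in 50.8% of all windows, too often to set any gene apart. TATAAA occurs in 13.6% of windows, and starts at -30, where a TATA box lies, in Cxcl3 and in S100a8. In S100a9 it starts at the annotated gene start itself, at 0.

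Signals are MAS5 intensities that had been scaled per array, and they compare arrays within a probe set, not genes with each other. Signals under a floor of 64.1 were set to it before log2 was taken, so a difference from a floored value is a lower limit of its size. This does not hold where the tumour difference in small intestine is subtracted from that in colon. There a floored value in small intestine can enlarge the result. Differences (log2, with SE) were estimated in a single limma model of the 8 arrays and 14023 tested genes. Its only spread is how far the ACKR2 difference varies between the 2 tissues, so its p-values hold no variation between animals. A gene passed at a Benjamini-Hochberg adjusted p under 0.05. All 9 genes entered the test, but Cxcl3 exceeded the floor on 2 arrays only, those of the colon tumours, and so had to differ there. Cxcl2 and Trem1 exceeded it on the 4 tumour arrays only, so that their entry into the test also came through the arrays where they were high. Csf3r exceeded it on 3 arrays, both colon tumours and WT small intestine, so its entry needed a colon tumour array.

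Some properties of the arrays run across these comparisons. Ackr2 itself, the targeted gene, did not separate the genotypes. Its brightest probe set read from 90.7 to 116 on the 4 arrays labelled ACKR2-present and from 71.3 to 153 on the 4 labelled ACKR2-/-. Whether that probe set lies in the deleted part is not given, so genotypes stand as labelled. Xist read 9809 and 7807 on the WT colon and WT small intestine arrays, where Eif2s3y, on the Y chromosome, read 2.92 and 2.66. In the ACKR2-/-ApcMin/+ tumours Xist read 77.9 and 127, and Eif2s3y 1501 and 1252, so the sex of the pools differed between groups. Tumour and tissue arrays differed in these genes too. Eif2s3y read 888 and 914 in the ApcMin/+ tumours of colon and small intestine, and Xist 4522 and 2818 in the ACKR2-/- tissues. The part of sex in the tumour differences was not tested. The 3'/5' ratio of Actb was 1.28 to 1.39 on the 4 ACKR2-/- arrays and 1.13 to 1.17 on the other 4. That of Gapdh overlapped, at 0.74 to 0.87 on the ACKR2-/- arrays and 0.77 to 0.95 on the others. The tissue labels held: 6 of 6 tested small-intestinal enterocyte genes passed as lower, and 5 of 7 colonocyte genes as higher, in colon tumours than in small-intestinal tumours.

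Cxcl1, an early-acting CXCR2 ligand, read 324 in WT and 113 in ACKR2-/- colon. The ApcMin/+ colon tumours read 1366 and the ACKR2-/-ApcMin/+ colon tumours 1459. In small intestine it read 335 in WT and 219 in ACKR2-/- tissue, and 442 and 414 in the tumours in the same genotype order. Both colon tumour arrays were above the other 6, and both small-intestinal tumour arrays were above their tissue, 1.32-fold in the ACKR2-present and 1.89-fold in the ACKR2-/- pair. Both further Cxcl1 probe sets were also highest in the colon tumours. The first read 108 and 51.7 in colon tissue against 983 and 1169 in colon tumours, and the other 276 and 189 against 656 and 751. In small intestine the first read 31.5 and 88.7 in tissue and 259 and 176 in tumours, at least 4.04-fold and 1.98-fold higher, and the other 258 and 330 against 367 and 424. In the test Cxcl1 was higher in colon tumours by 2.88 ± 0.28 (SE, limma adjusted p = 0.00322). In small intestine its difference was 0.66 ± 0.28 (limma adjusted p = 0.269).

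Cxcl2, made largely by myeloid cells, was under the floor in all 4 tissues without tumours. Its signals were 35.8 in WT colon, 12.1 in ACKR2-/- colon, 31.2 in WT small intestine and 20.6 in ACKR2-/- small intestine. Colon tumours read 1853 in ApcMin/+ and 1809 in ACKR2-/-ApcMin/+, and small-intestinal tumours read 197 and 106. All 4 tumour arrays thus lay above all 4 tissue arrays, and the colon tumours above the small-intestinal ones. The difference was at least 4.84 ± 0.29 in colon (limma adjusted p = 0.00108), the largest of the 9 genes in colon and rank 21 of all genes tested there. In small intestine it was at least 1.17 ± 0.29 and did not pass (limma adjusted p = 0.0939).

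Cxcl3, a close relative of Cxcl2, read 344 in ApcMin/+ and 286 in ACKR2-/-ApcMin/+ colon tumours. On the other 6 arrays it stayed under the floor, at 32.4 and 10.0 in WT and ACKR2-/- colon and from 0.961 to 42.5 in small intestine and its tumours. The difference was at least 2.29 ± 0.20 in colon (limma adjusted p = 0.00232). Since 6 values sit at the floor and show no spread, this SE rests mostly on the spread of other genes.

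Cxcl5, a CXCR2 ligand made mainly by epithelium, was above the floor in normal colon. It read 308 in WT and 218 in ACKR2-/- colon, and 2233 and 4148 in the colon tumours. Small intestine was at the floor, at 32.3 and 33.8, and its tumours read 225 and 163. Colon tumours were higher than colon tissue by 3.55 ± 0.37 (limma adjusted p = 0.00365). In small intestine the tumours exceeded their tissue in both pairs, by at least 1.58 ± 0.37, which did not pass (limma adjusted p = 0.0821).

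**Figure D1:**
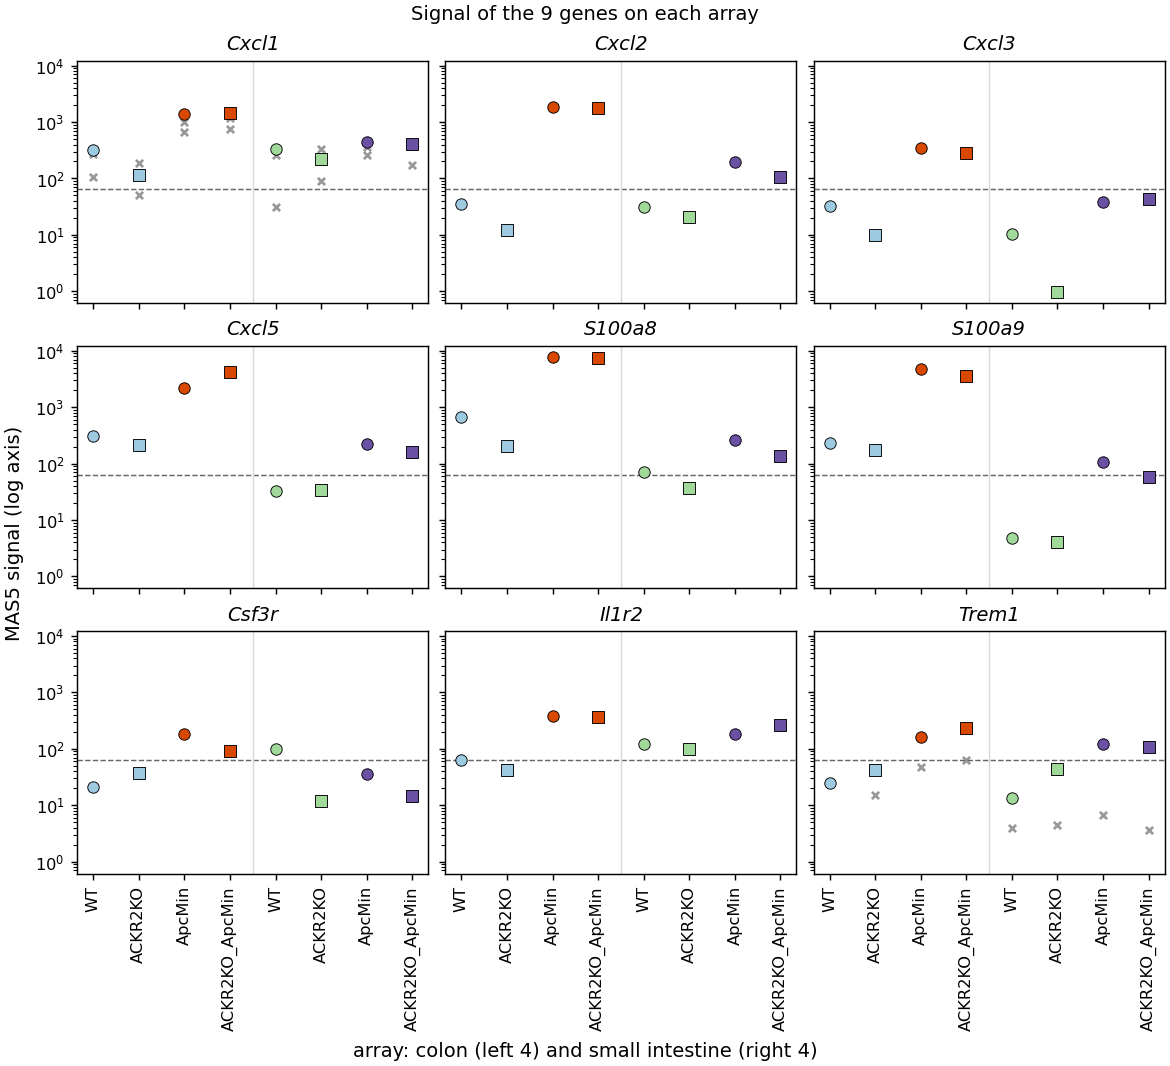
MAS5 signal (log axis) of the 9 genes on each of the 8 arrays, 1 array per group, with colon on the left and small intestine on the right of each panel. Coloured points are the tested probe set, grey crosses further probe sets, and the dashed line the floor of 64.1; in 8 panels both colon tumour arrays lie above the other 6, and for Csf3r only 1 does.

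S100a8 and S100a9 encode the 2 chains of calprotectin, which binds calcium, zinc and manganese and signals to other cells. S100a8 read 681 in WT and 206 in ACKR2-/- colon, against 7695 in ApcMin/+ and 7478 in ACKR2-/-ApcMin/+ colon tumours. In small intestine it read 71.9 and 37.0, and in the tumours there 265 and 138. S100a9 read 230 and 172 in colon and 4681 and 3594 in colon tumours. It read 4.71 and 4.02 in small intestine, and 108 and 56.9 in the tumours, so that only 1 array of small intestine exceeded the floor. Both genes were highest in the colon tumours and lowest in small intestine without tumours, and in colon the tumour and tissue arrays did not overlap. The differences in colon tumours were 4.34 ± 0.42 for S100a8 (limma adjusted p = 0.00309) and 4.36 ± 0.27 for S100a9 (limma adjusted p = 0.00108). In small intestine they were at least 1.50 ± 0.42 (limma adjusted p = 0.122) and at least 0.38 ± 0.27 (limma adjusted p = 0.491).

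Il1r2 rose in colon tumours from values near the floor. It read 62.2 in WT and 41.4 in ACKR2-/- colon, and 383 and 362 in the colon tumours. In small intestine it was already above the floor, at 123 and 101, and its tumours read 180 and 268. The difference was at least 2.54 ± 0.27 in colon (limma adjusted p = 0.00371) and 0.98 ± 0.27 in small intestine (limma adjusted p = 0.115).

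Trem1 was under the floor in all 4 tissues, at 24.3 and 41.6 in colon and 13.2 and 44.7 in small intestine. Its tumour signals were 164 and 236 in colon and 121 and 108 in small intestine, so all 4 tumour arrays exceeded all tissue arrays. It was higher by at least 1.62 ± 0.24 in colon tumours (limma adjusted p = 0.00765) and by at least 0.83 ± 0.24 in small-intestinal tumours, which did not pass (limma adjusted p = 0.125). A further Trem1 probe set stayed under the floor on all 8 arrays, with a highest signal of 63.7, and gives no reading.

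Csf3r stood apart from the other 8 genes. It read 20.6 and 37.4 in colon and 184 and 91.9 in colon tumours, but 98.8 in WT small intestine, which lies between the 2 colon tumour arrays. ACKR2-/- small intestine read 12.0, and the small-intestinal tumours 36.2 and 14.4, under the floor. Its difference in colon tumours, at least 1.02 ± 0.29, missed the threshold (limma adjusted p = 0.0529). In small intestine, with 3 of 4 arrays at the floor, the difference was -0.31 ± 0.29 (limma adjusted p = 0.612).

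In colon, then, 8 of the 9 genes passed as higher in tumours and 0 as lower, where 11.0% of all tested genes passed as higher and 12.6% as lower. Since Cxcl2, Cxcl3 and Trem1 entered the test through tumour arrays alone, this count is a description. The 9 genes were also chosen with earlier results of these data known. Of the 6 genes that exceeded the floor on a tissue array too, 5 passed, which is likewise a description. Among these 6, Il1r2 and Csf3r were under the floor in colon tissue and exceeded it in small intestine. Csf3r did so in WT small intestine alone, so its entry needed a colon tumour array. The same 8 were at least 2-fold higher in both colon tumour pairs, the ApcMin/+ tumour over WT and the ACKR2-/-ApcMin/+ tumour over ACKR2-/- tissue, as were 4.86% of all tested genes. The median difference over the 9 genes was 2.88, beside 0.00 over all tested genes. It was 3.22 over the 4 attractants and 2.54 over the 5 neutrophil genes. In small intestine 0 of 9 genes passed in limma, where 2.77% of all genes passed as higher and 1.2% as lower. There 5 of the 9 had an unadjusted p under 0.05, as had 2827 of all 14023 tested genes. Cxcl5 and S100a8 were at least 2-fold higher in both small-intestinal tumour pairs, as were 3.14% of all tested genes, and the median over the 9 genes was 0.83 beside 0.04.

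These counts depend on single arrays and on the floor. Without any 1 of the 4 colon arrays or the 2 small-intestinal tissue arrays, 0 of the 9 genes passed in colon. A model of 7 arrays has 1 residual degree of freedom. Without either small-intestinal tumour array 6 passed, all but Cxcl1, S100a8 and Csf3r. Without both WT arrays, where Xist was highest and Eif2s3y lowest, all 9 differences in colon stayed positive, the smallest at 0.77. Without both ACKR2-/-ApcMin/+ arrays Cxcl3 was not tested, and the smallest of the others was 1.36. Counts for both settings are given at the end. The differences themselves kept their direction in all of these. With no floor, 4 genes passed as higher in small-intestinal tumours: Cxcl2 (2.51), Cxcl5 (2.54), S100a8 (1.89) and S100a9 (4.17).

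**Figure D2:**
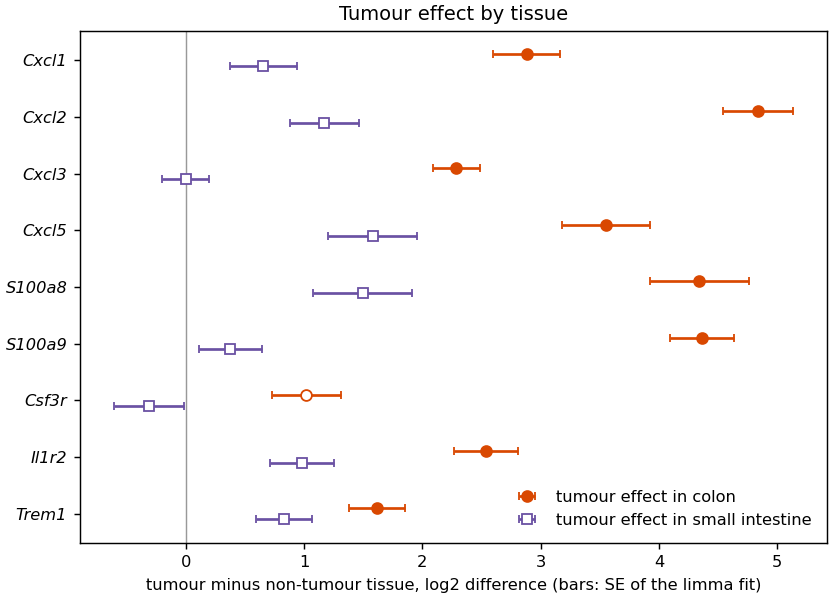
Tumour minus non-tumour tissue for the 9 genes (log2 difference on the horizontal axis, bars SE of the limma fit), in colon (circles) and small intestine (squares), with filled points where the adjusted p was under 0.05. All 9 points for colon lie to the right of those for small intestine, from 1.02 for Csf3r to 4.84 for Cxcl2.

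Whether the tumour difference itself was larger in colon than in small intestine was tested directly. It passed for 3 of the 9 genes, where 0.735% of all tested genes passed in this direction. The 3 were Cxcl2 (3.66 ± 0.42, limma adjusted p = 0.0187), Cxcl3 (2.29 ± 0.28, limma adjusted p = 0.0219) and S100a9 (3.98 ± 0.38, limma adjusted p = 0.0132). Cxcl3 had entered the test through the colon tumour arrays alone, so this count is a description. For Cxcl1 the difference was 2.22 ± 0.40 (limma adjusted p = 0.0545) and for S100a8 2.85 ± 0.59 (limma adjusted p = 0.0777). Il1r2 (1.55), Cxcl5 (1.97), Csf3r (1.33) and Trem1 (0.79) had limma adjusted p-values from 0.106 to 0.275. The calls for Cxcl3 and S100a9 rest on the floor: with no floor their differences were 0.47 and 0.19, since the signals of small intestine, 0.961 to 10.3 and 4.02 to 4.71, then enter as they are. Leaving out any 1 array left 0 of these calls.

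With the tumours set directly against each other, 6 of the 9 genes passed as higher in colon than in small-intestinal tumours, beside 5.76% of all tested genes. S100a9 was higher by at least 5.62 ± 0.27 (limma adjusted p = 0.000349) and S100a8 by 5.31 ± 0.42 (limma adjusted p = 0.0015), ranks 2 and 3 of all genes tested. Cxcl5 was higher by 3.99 ± 0.37, Cxcl2 by 3.66 ± 0.29, Cxcl3 by at least 2.29 ± 0.20 and Cxcl1 by 1.72 ± 0.28 (limma adjusted p-values from 0.00154 to 0.0141). The same 6 were at least 2-fold higher in both genotypes, as were 2.79% of all tested genes. Cxcl3 had to differ here, having entered the test through the colon tumour arrays alone, so both counts are descriptions. Csf3r (1.02), Trem1 (0.79) and Il1r2 (0.76) did not pass, with limma adjusted p-values from 0.0747 to 0.122. Leaving out any 1 array left 0 of the 6 calls.

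Part of that gap was there without tumours. In tissue of WT and ACKR2-/- mice, colon exceeded small intestine for Cxcl5 by at least 2.01 ± 0.37, for S100a8 by at least 2.46 ± 0.42 and for S100a9 by at least 1.64 ± 0.27 (limma adjusted p = 0.0152, 0.0114 and 0.00993). These 3 of 9 genes compare with 13.0% of all tested genes. For Cxcl2, Cxcl3 and Trem1 both tissues were at the floor, so no difference could be read. With the floor at the 60th percentile, or without any 1 array, 0 of these 3 passed.

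Between ACKR2 genotypes 0 of the 9 genes passed in tumours in limma, and 0 had an unadjusted p under 0.05. Of all 14023 tested genes 5 passed, 0.0357%, and 2188 had an unadjusted p under 0.05. The differences, ACKR2-/-ApcMin/+ minus ApcMin/+, ran from -0.57 ± 0.27 for S100a9 (limma adjusted p = 0.372) to 0.25 ± 0.27 for Il1r2. In tissue without tumours 0 of 9 passed, where 0.685% of all tested genes passed. Of the 14023 tested genes 3478 had an unadjusted p under 0.05 there, as did 1 of the 9. That gene was Cxcl1, at -1.06 ± 0.28 (limma adjusted p = 0.0956). This value depends on the probe set and on the scaling of the arrays. With the mean of all Cxcl1 probe sets it was -0.43, and 0 of 9 genes then had an unadjusted p under 0.05. With median centring 0 of 9 had one either. In small intestine both other probe sets were higher on the ACKR2-/- array, by 0.47 and 0.36, and in colon all 3 were lower. The test of whether the ACKR2 difference in tumours departed from that in tissue passed for 0 of 9 in limma, with 1 unadjusted p under 0.05, that of Cxcl1 (1.06). Of all 14023 tested genes, 1131 had an unadjusted p under 0.05 in that test.

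The pairs of arrays labelled as differing in ACKR2 also differed in the sex genes and in the Actb ratio. In colon tumours, 1 of 9 genes was at least 2-fold apart, as were 6.87% of all tested genes. It was Csf3r, at 184 in ApcMin/+ and 91.9 in ACKR2-/-ApcMin/+ tumours. Cxcl5 went the other way by 0.89, at 2233 and 4148, while Cxcl1, Cxcl2, S100a8 and Il1r2 differed by less than 0.1. In small-intestinal tumours 0 of 9 were 2-fold apart (6.56% of all genes). S100a8, Cxcl2 and S100a9 were lower in ACKR2-/-ApcMin/+, with differences of -0.94, -0.89 and -0.76, and Il1r2 was higher by 0.57. In colon without tumours, Cxcl1 (-1.52) and S100a8 (-1.73) were at least 2-fold lower on the ACKR2-/- array, where 7.12% of all genes were 2-fold apart. In small intestine without tumours 0 of 9 were (8.47% of all genes), with Csf3r at -0.62 and Cxcl1 at -0.61 by its tested probe set. The Actb ratio and the sex genes move with this comparison in tumours and in tissue alike. The Gapdh ratio moved in opposite directions. It was higher on the ACKR2-/- tumour arrays, at 0.80 against 0.77 in colon and 0.87 against 0.79 in small intestine. On the ACKR2-/- tissue arrays it was lower, at 0.74 against 0.86 and 0.82 against 0.95. On the ACKR2-/- arrays of colon and small intestine Eif2s3y read 897 and 919 and Xist 4522 and 2818. Smooth muscle genes also moved with this comparison in tumours, with a median of -1.97, beside -0.15 in tissue. Their summed signal was 38044 in ApcMin/+ and 9551 in ACKR2-/-ApcMin/+ colon tumours, and 27349 and 10631 in small-intestinal tumours. Lymphocyte genes summed to 6301 and 11096 in small-intestinal tumours, but to 540 and 499 in colon tumours. The part of the control ratios, the sex genes, muscle and lymphocytes in the ACKR2 differences was not tested.

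**Figure D3:**
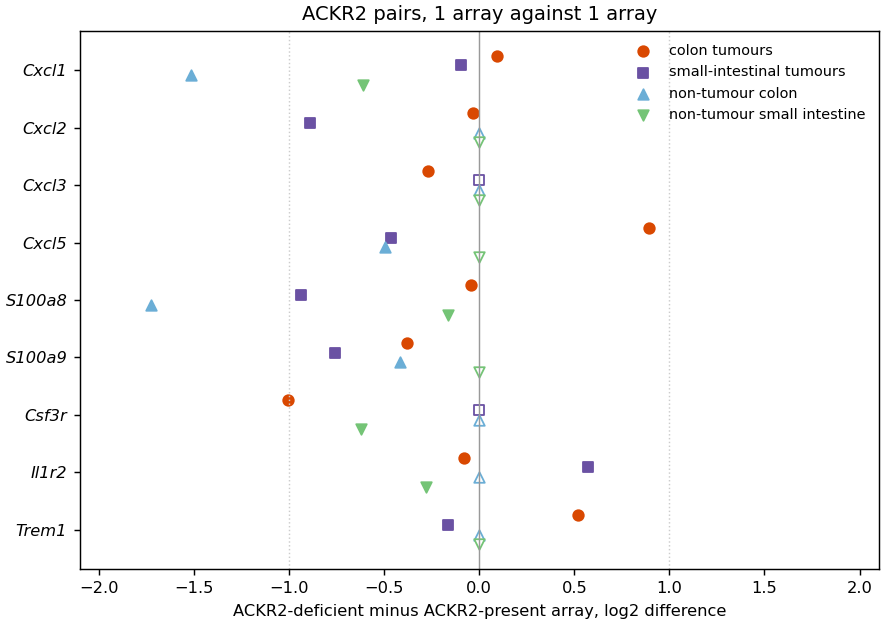
Log2 difference between the ACKR2-/- and the ACKR2-present array of each pair for the 9 genes, 1 array against 1, in colon tumours, small-intestinal tumours, colon and small intestine; open points mark pairs with both arrays at the floor and dotted lines a 2-fold difference. Cxcl1 and S100a8 in colon without tumours (-1.52 and -1.73) and Csf3r in colon tumours reach the dotted line, and the other points lie inside both dotted lines.

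Among receptors and growth signals of the same pathway, 10 of 15 listed genes could be tested. This list and those below were drawn up with earlier results of these data known, so their counts are descriptions. In colon tumours 2 passed as higher and 2 as lower, beside 11.0% and 12.6% of all tested genes. In small-intestinal tumours 2 passed as higher and 0 as lower, beside 2.77% and 1.2% of all genes. Cxcr2, the receptor for all 4 attractants, stayed under the floor on all 8 arrays, with its highest signal, 48.7, in the ApcMin/+ colon tumours. Csf3, the G-CSF that Csf3r binds, read 88.5 and 98.1 in colon tumours and from 50.4 to 109 on the other arrays, a difference of 0.26 ± 0.23 in colon (limma adjusted p = 0.463). Csf2rb, a shared receptor chain for GM-CSF, IL-3 and IL-5, was higher by 1.19 in colon tumours and by 1.34 in small-intestinal tumours, and both passed. Il17a was higher by at least 1.06 in colon tumours, at 106 and 169 against tissue signals under the floor. Cxcl12, which holds neutrophils in bone marrow, was lower, at -1.81 ± 0.18 (limma adjusted p = 0.0033). Cxcr4, its receptor, rose in small-intestinal tumours by at least 2.93 ± 0.24 (limma adjusted p = 0.0049).

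Of the inducers, 10 of 13 listed genes could be tested and 3 passed as higher in colon tumours (11.0% of all tested genes), with 0 lower. Il1b, the cytokine that Il1r2 binds, read 193 and 103 in colon and 1254 and 1493 in colon tumours, a difference of 3.28 ± 0.33 (limma adjusted p = 0.0033). In small intestine it read 206 and 195, and 262 and 181 in the tumours, a difference of 0.12, and the gap between tissues was 3.16 ± 0.47 (limma adjusted p = 0.0343). Tnf, under the floor in colon at 8.76 and 11.7, read 156 and 270 in colon tumours, and passed at 1.68 or more. Nfkbiz, a co-activator of NF-kB targets, passed at 0.79. Il1rn, the secreted IL-1 receptor antagonist, showed the opposite arrangement to Il1b. It read 1508 and 2881 in colon and 2257 and 2466 in colon tumours, but 75.6 and 119 in small intestine against 1105 and 776 in its tumours. Its tumour difference was 0.18 in colon and 3.29 ± 0.22 in small intestine (limma adjusted p = 0.0035), and the tissues differed by -3.11 ± 0.31 (limma adjusted p = 0.0141).

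Granule and oxidase genes bear on whether the name "neutrophil genes" fits. Of 15 listed genes 10 could be tested, with 4 higher in colon tumours (11.0% of all tested genes), 3 higher in small-intestinal tumours (2.77%) and 0 lower in either. Mpo, Camp, Ctsg and Prtn3, made in neutrophil precursors, were under the floor on all 8 arrays, and Ly6g, which defines mouse neutrophils, was not analysed here. Mmp9, a gelatinase of neutrophil granules and other cells, read 76.3 and 57.8 in colon and 596 and 539 in colon tumours, higher by at least 3.02 ± 0.32 (limma adjusted p = 0.0038). Mmp8, neutrophil collagenase, was above the floor only in colon tumours, at 186 and 169, and entered the test through those arrays alone, as did Il5ra below. Padi4, which modifies histones in neutrophils, read 396 and 280 in colon tumours against 4.70 and 13.6 in colon. Lcn2, made by neutrophils and by epithelium, read 3347 and 8739 in colon tumours and 1662 and 1244 in small-intestinal tumours, against at most 235 in tissue, and passed in both (4.78 and 3.65). Ltf (2.43) and Cybb (1.98) passed in small-intestinal tumours. In the test of whether the tumour difference was larger in colon, Mmp9 (2.79) and Mmp8 (1.47) passed, while Ltf (-3.36), Ncf4 (-0.85) and Ncf1 (-0.83) had the opposite sign and did not pass. Between the tumours themselves the list was mixed: 4 genes passed as higher in colon tumours and Elane, neutrophil elastase, as lower (-0.79, limma adjusted p = 0.0418), with a list median of -0.31 beside 0.07 over all tested genes.

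Of 13 tested surface genes of neutrophils and partners of the members, 7 passed as higher in colon tumours (11.0% of all tested genes) and 0 in small-intestinal tumours (2.77%). The difference between tissues passed for 1 of them, Clec4e. This lectin receptor read 18.1 and 17.1 in colon and 281 and 410 in colon tumours, higher by at least 2.40 ± 0.21 (limma adjusted p = 0.0023). Fpr2, a formyl peptide receptor, read 340 and 341 in colon tumours against 42.0 and 59.7 in colon, and Clec4d 299 and 551 against 90.9 and 68.5. Cd177, a neutrophil surface protein, read 4826 and 4223 against 1866 and 1055. Tyrobp, the adaptor through which Trem1 signals, was higher by 1.20 ± 0.17 (limma adjusted p = 0.0070), and Itgb2, the beta chain of leukocyte integrins, by 1.76 ± 0.24 (limma adjusted p = 0.0063). Itgam, the alpha chain it pairs with on neutrophils and monocytes, did not pass, at 0.34.

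**Figure D4:**
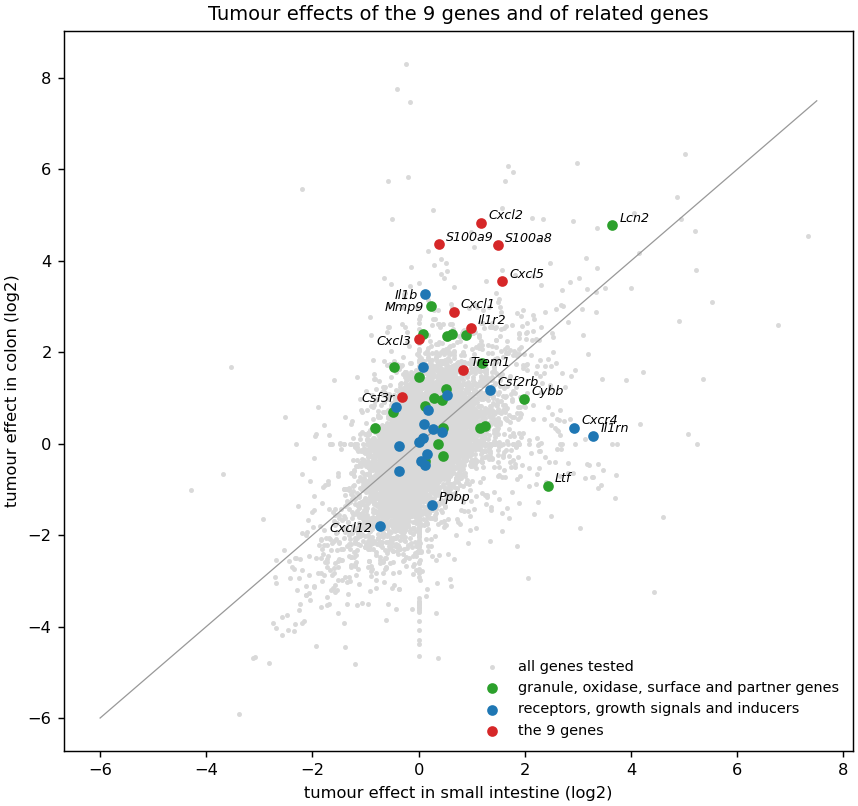
Tumour difference in colon (vertical, log2) against that in small intestine (horizontal, log2) for all tested genes (grey), the 9 genes (red), receptors, growth signals and inducers (blue) and granule, oxidase, surface and partner genes (green); the line marks equal differences. The 9 genes lie above the line, Lcn2 is high on both axes (4.78 and 3.65), and Il1rn, Cxcr4 and Ltf lie to the right.

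Markers of other cells moved as well. Lymphocyte genes ran opposite to the 9 genes between the tissues. All 6 tested passed as lower in colon than in small-intestinal tumours, with a median of -3.40, and the B cell genes Ms4a1, Cd79a and Cd79b passed as higher in small-intestinal tumours (2.66 to 4.61) and in the difference between tissues. Their summed signal was at most 1192 on the 4 colon arrays, 2118 and 2102 in small intestine and 6301 and 11096 in its tumours. Of 7 colonocyte genes 5 passed as lower in colon tumours, with a median of -2.04, beside 12.6% of all tested genes. Of 11 tested macrophage genes 2 passed as higher in colon tumours (Lyz2, 1.54, and Cx3cr1, 1.16) and 1 as lower (Cd163, -2.06), beside 11.0% and 12.6% of all tested genes, and 0 passed in small-intestinal tumours. Their summed signal was 11214 and 12333 in colon and 18857 and 22004 in colon tumours, and from 12080 to 14953 in small intestine and its tumours. No macrophage marker with a probe set was under the floor on all arrays. Of 2 tested eosinophil genes, Il5ra passed in colon tumours at 0.68, and Csf2rb is also an eosinophil receptor chain. All 10 smooth muscle genes passed as lower in colon tumours and 7 of 10 in small-intestinal tumours. Their summed signal was 144853 and 124862 in colon, 38044 and 9551 in colon tumours, 64262 and 69577 in small intestine and 27349 and 10631 in its tumours. The summed signal of the 4 attractants was 700 and 354 in colon and 5795 and 7701 in colon tumours, and 409 and 275 in small intestine and 902 and 726 in its tumours. The part of macrophages, lymphocytes, colonocytes and muscle in the values of the 9 genes was not tested.

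In the CXC chemokine cluster on chromosome 5, genes that rose in colon tumours lay beside genes that did not pass as higher. In the order Cxcl5, Ppbp, Pf4, Cxcl3, Cxcl15, Cxcl1, Cxcl2, the genes Ppbp and Pf4, which platelets carry and of which Ppbp also gives a CXCR2 ligand, lie between attractants. Ppbp read 609 and 1056 in colon and 293 and 343 in colon tumours, a fall that passed at -1.34 ± 0.32 (limma adjusted p = 0.0312), and Pf4 differed by -0.04. Cxcl15 was under the floor on all 8 arrays. On the far side of Cxcl2, Mthfd2l and Epgn differed by 0.31 and 0.17 without passing, while Ereg, an EGF receptor ligand, rose by 1.18 ± 0.23 (limma adjusted p = 0.0168). Rassf6, next to Cxcl5, differed by 0.13. Beside S100a8 and S100a9 on chromosome 3, S100a6 differed by -0.29 in colon tumours and rose by 1.59 in small-intestinal tumours (limma adjusted p = 0.0253). Next to Il1r2 on chromosome 1, Il1r1, the signalling receptor for IL-1, differed by 0.43 and did not pass. Map4k4, on the other side of Il1r2, rose by 1.13 ± 0.26 in colon tumours and passed (limma adjusted p = 0.0294). Trem3, beside Trem1 on chromosome 17, differed by 0.35 and did not pass. Treml2, further along on that side, was under the floor on all colon arrays. In small-intestinal tumours Treml2 rose by at least 1.11 ± 0.17 and passed (limma adjusted p = 0.0265). The rule for neighbours, 3 protein-coding genes on each side, was set after the data had been seen.

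**Figure D5:**
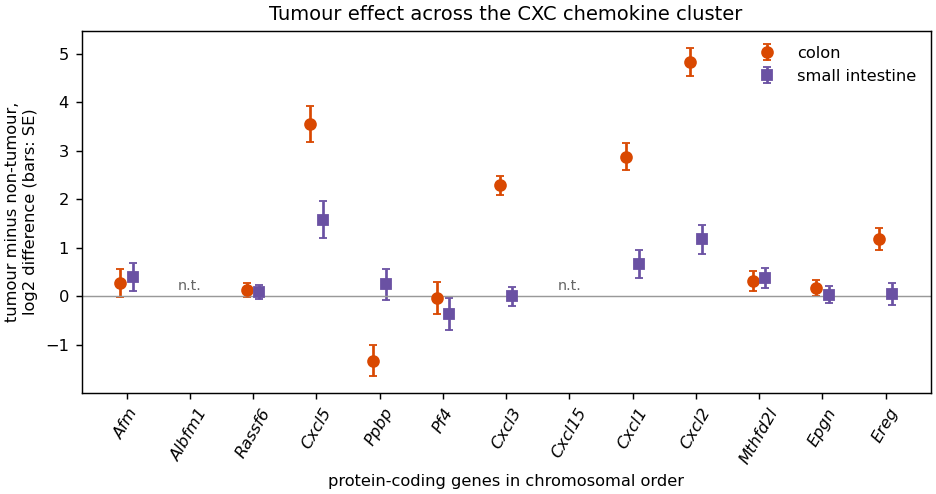
Tumour minus non-tumour tissue (vertical, log2 difference, bars SE of the limma fit) for the protein-coding genes of the CXC chemokine cluster in chromosomal order, in colon (circles) and small intestine (squares); n.t. marks genes not tested. Cxcl5, Cxcl3, Cxcl1 and Cxcl2 stand at 2.29 to 4.84 in colon, and Ppbp and Pf4 between them at -1.34 and -0.04.

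Among themselves the 9 genes followed each other over the 8 arrays to different degrees. Pearson's r of log2 signals was 0.98 for S100a8 with S100a9 and with Cxcl5, and 0.96 for Cxcl2 with Cxcl3. For Csf3r it ran from 0.50 with Trem1 to 0.81 with Cxcl3. Among 2863 tested genes with a range of at least 2 on the log2 scale, those most like the mean profile of the attractants were Mmp12 (r = 0.987), Wnt10a (0.985), Cers3 (0.984), Gsap (0.983), Clec4d (0.979) and Nrep (0.978). Those most like the 5 neutrophil genes were Mmp3 (0.977), Mmp12 (0.976), Ceacam12, Wnt10a and Fpr2 (each 0.972) and Cers3 (0.969). Mmp12, macrophage elastase, read 772 and 909 in colon tumours, 115 and 31.5 in small-intestinal tumours and at most 35.5 in tissue. All these values are over the same 8 arrays, which differ mainly in tissue and tumour, so any gene high in colon tumours alone scores high.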

How the data were processed

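The deposited table holds linear intensity values of 8 arrays. The submitters' processing notes name MAS5 and Partek, without versions, and the trimmed mean of each deposited intensity column was 500, so arrays had been scaled by the authors. Per the labels, RNA was extracted with Trizol and RNeasy, pooled and labelled (3' IVT Express). Of 45101 probe sets, 34945 had 1 gene, 932 several and 9160 none, and 64 controls were left out. Values under 64.1 (log2 6.00), the median of the arrays' 40th percentiles, were set to it. Each gene was read from the probe set with the highest mean, and genes above the floor on at least 2 arrays were tested. The limma model (limma 3.58.1, R 4.3.3) had 6 coefficients, 2 residual and 4.16 prior degrees of freedom, and a median standard deviation of 0.22 (log2). The 6 were 4 intercepts, for tissue by tumour status, and 1 ACKR2 difference per tumour status. Tests were two-sided. The procedure was run on simulated arrays with independent noise of the fit's own spread. These held no variation between animals and no values tied at the floor, so they do not test either limit.

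Members and gene lists were chosen with earlier results of these data known. Named genes were the members, Cxcr2, Csf3, Il1b, Ly6g, Mpo, and up to 4 called genes per pathway list and 3 per cell type list; others, such as Il1rn, Itgam, Tyrobp, Camp, Elane, Ncf1, Ncf4 and the gene neighbours, were named after their values were seen. The number of arrays limits the precision. Other settings were no floor, floors at the 25th and 60th percentiles, other filters, median centring, quantile normalization, a mean over a gene's probe sets, no trend, 1 ACKR2 difference for all arrays, and leaving out arrays.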

Additional observations from a re-analysis of the deposited data

Results flagged for a closer look

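The tumour difference was larger in colon than in small intestine, by the test of that difference itself, for Cxcl2 (3.66), Cxcl3 (2.29) and S100a9 (3.98 on the log2 scale). In small intestine Cxcl3 was under the floor on all 4 arrays, and S100a9 exceeded it only in the ApcMin/+ tumours (108). Cxcl3 entered the test through the colon tumour arrays alone. With no floor the difference was 0.47 for Cxcl3 and 0.19 for S100a9, with limma adjusted p-values of 0.871 and 0.875, and without any 1 array none of the 3 passed.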

How the results depend on the processing

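All differences of the 9 genes in colon tumours kept their direction under every setting run. Of 97 values under settings other than leaving out 1 array, 75 kept their side of the threshold, 18 lost it and 4 gained it. Genes of the 9 passing as higher in colon tumours (8) were 1 with the filter on all 8 arrays, where only Cxcl1 is tested, 1 with no filter, 4 without both WT arrays, 0 without both ACKR2-/-ApcMin/+ arrays and 0 to 6 with 1 array left out. In small-intestinal tumours (0) they were 4 with no floor, 3 with the floor at the 25th percentile and 0 with 1 array left out. For the difference between tissues (3) they were 5 with the floor at the 60th percentile, 1 with the filter on all 8 arrays, and 0 with no filter, without both WT arrays, without both ACKR2-/-ApcMin/+ arrays or with 1 array left out. For colon against small-intestinal tumours (6) they were 1 with the filter on all 8 arrays and 0 with no filter, without both ACKR2-/-ApcMin/+ arrays or with 1 array left out. For colon against small intestine without tumours (3) they were 0 with the floor at the 60th percentile, with either filter, without both WT arrays or with 1 array left out.

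Of all genes, 3312 passed in colon tumours, 87 with no filter, 112 without both WT arrays, 3 without both ACKR2-/-ApcMin/+ arrays and 0 to 1046 with 1 array left out. In small-intestinal tumours 557 passed, 332 with the floor at the 60th percentile, 18 with no filter, 1 without both WT arrays, 0 without both ACKR2-/-ApcMin/+ arrays and 0 with 1 array left out. The difference between tissues passed for 316, 209 with the floor at the 25th percentile, 20 with no filter, 200 with the mean of all probe sets, 202 with no trend, and 0 without both WT arrays, without both ACKR2-/-ApcMin/+ arrays or with 1 array left out. Between the tumours of both tissues 1840 passed, 24 with no filter, 545 without both WT arrays, 41 without both ACKR2-/-ApcMin/+ arrays and 0 to 18 with 1 array left out. Between tissues without tumours 2999 passed, 253 with no filter, 254 without both WT arrays and 0 to 796 with 1 array left out. For ACKR2 in tumours 5 passed, 41 with no floor, 82 with the filter on all 8 arrays, 2 with no filter, 806 with 1 ACKR2 difference for all arrays, 0 without both WT arrays or with 1 array left out, and 1 under each of both other floors, median centring, quantile normalization, the mean of all probe sets and no trend. For ACKR2 in tissue 96 passed, 427 with no floor, 851 with the filter on all 8 arrays, 0 with no filter, 21 with quantile normalization, 3815 with median centring, 13 with the mean of all probe sets, 1 with no trend, 806 with 1 ACKR2 difference for all arrays, and 0 without both ACKR2-/-ApcMin/+ arrays or with 1 array left out. Median centring moved the median of all genes from -0.02 to 0.43 there, from -0.03 to 0.20 for ACKR2 in tumours, from -0.07 to 0.12 for the difference between tissues and from 0.04 to -0.11 in small-intestinal tumours.

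Small ACKR2 differences changed sign. In tumours, Cxcl5 was -0.0159 with 1 ACKR2 difference for all arrays and ranged from -0.46 to 0.89 with 1 array left out, Il1r2 from -0.0796 to 0.57 and Trem1 from -0.17 to 0.52. In tissue, Cxcl5 was 0.0687 with median centring, S100a9 0.0264 with quantile normalization and 0.106 with median centring, and Il1r2 0.0922 and 0.0931 with the same and 0.0533 with 1 ACKR2 difference for all arrays. Csf3r in small-intestinal tumours ranged from -0.81 to 0.19 with 1 array left out. Apart from what the construction of a setting shows, the cause of these changes was not tested. Signals under the floor limit what can be read for Cxcl3, Trem1, Csf3r and S100a9 in small intestine.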
